A study of Mus musculus with 71 samples.

Results

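The D cyclins and the inhibitors of their kinases were followed in mouse embryonic stem (ES) cells with and without the enzymes of Polycomb repressive complex 2 (PRC2). The 8 genes were chosen by symbol from the 24222 genes of the count tables: the D cyclins Ccnd1, Ccnd2 and Ccnd3, the Cip/Kip inhibitor Cdkn1b, and the INK4 genes Cdkn2a, Cdkn2b, Cdkn2c and Cdkn2d. RNA was sequenced in 3 groups of 3 libraries, all labelled as C57BL/6 ES cells grown on gelatin in 2i, a medium with inhibitors of MEK and GSK3 that holds the cells in the naive state. The groups were wild type (WT), an Ezh1/Ezh2 double knockout (dKO), and knockout cells given wild-type EZH2 back, labelled as an EZH2 rescue (rescue). Whether a line is a single clone is not given in the sources used here. A list of Suz12 peaks from Suz12 WT ES cells of another strain, 129B6F1, was also used.

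D cyclins bind and activate the kinases Cdk4 and Cdk6, which phosphorylate the retinoblastoma protein and so release E2F factors that switch on genes of DNA replication. The INK4 proteins bind Cdk4 and Cdk6 and keep them from the cyclin, while the Cip/Kip proteins bind cyclin-kinase complexes, above all those of Cdk2. PRC2 methylates lysine 27 of histone H3, and the locus that holds Cdkn2a and Cdkn2b is a textbook target of Polycomb repression in fibroblasts. ES cells are known for a short G1 phase.

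All 8 genes had reads in every library and passed the filter on low counts that left 14145 genes. Levels are in CPM, counts scaled to library size with TMM factors. No transcript lengths were used, so levels are set side by side within a gene, and sums or ratios over genes only between groups. Changes are log2 fold changes from 1 fit of all 9 libraries with edgeR's quasi-likelihood test, with the standard error (SE). A gene "rose" or "fell" where the Benjamini-Hochberg adjusted p over all tested genes was under 0.05. Libraries held 12457622 to 36009529 counts. Replicates differed by more than sampling noise, with a chi-square per degree of freedom of 2.17 to 23.9. The labels name no separate cultures behind them. The p-values thus reflect how far these libraries scatter, which could be technical. dKO replicate 3 stood apart from dKO replicates 1 and 2, at 12.3 against -7.46 and -6.42 on the second principal component. The targeted gene Ezh1 was at 47.9 to 53.4 CPM in WT, 1.80 to 2.34 CPM in dKO and 2.33 to 3.42 CPM in rescue, and Ezh2 at 308 to 314, 191 to 214 and 549 to 576 CPM. Gene counts do not show a deleted exon, so Ezh2 checks the labels only in part. The 3 comparisons share libraries and are not independent of each other.

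In dKO against WT, 3 of the 8 genes rose (Ccnd2, Cdkn2c and Cdkn2d), 1 fell (Cdkn1b) and 4 did not pass the test. Among all tested genes 33.7% rose and 31.0% fell, 64.7% in all (4769 and 4382 genes, or 5841 and 2984 with library totals in place of TMM), so 4 of 8 is not above the background. The libraries of the 2 groups did not overlap for 5 of the 8, and for 68.0% of all tested genes. The median log2 fold change of the 8 was 0.17, against -0.00 for all tested genes. Ccnd2 stood far from the other members: its level rose 39.0-fold, while the other 7 moved by 1.47-fold or less in either direction. With library totals 5 of the 8 rose and 0 fell. Without dKO replicate 3, 7 of the 8 passed, with Ccnd1, Cdkn2a and Ccnd3 added, 5 of them higher and 2 lower.

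**Figure D1:**
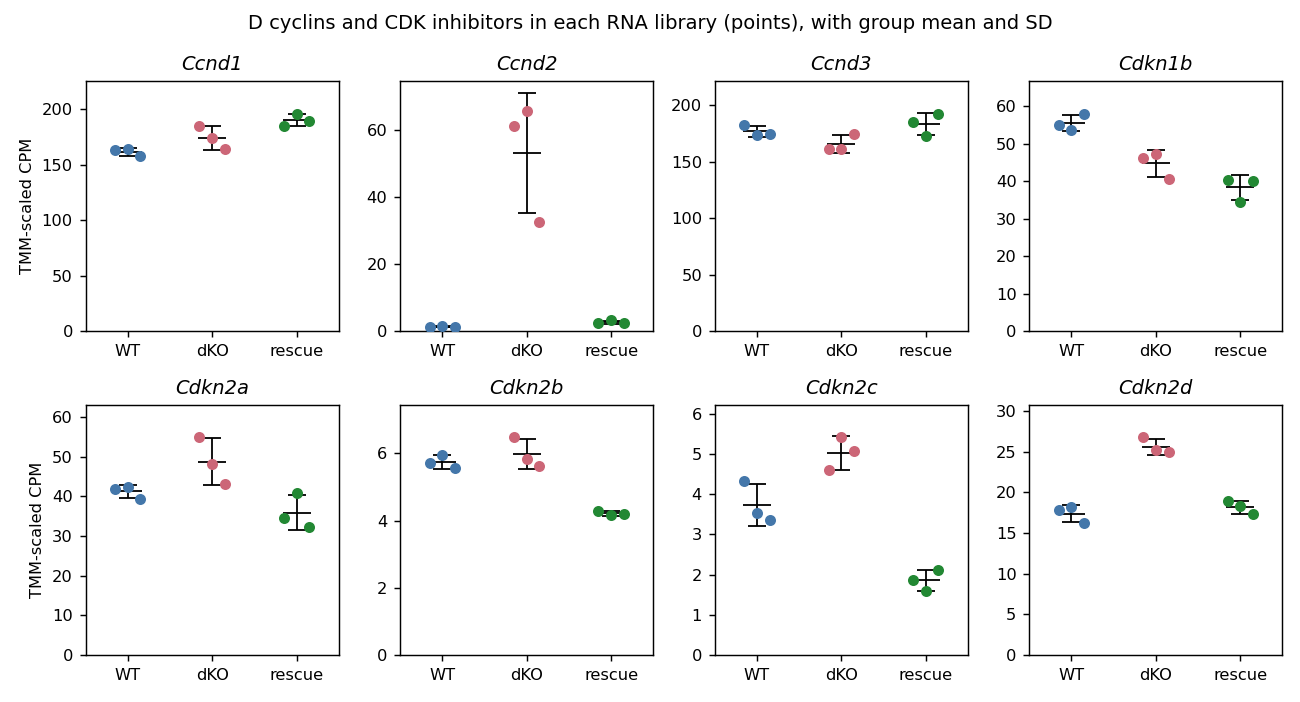
TMM-scaled CPM of the 8 genes in each of the 9 RNA libraries (points), by group, each panel on its own scale from 0. Bars give the group mean and SD of 3 libraries. Ccnd2 lies between 32.5 and 65.6 CPM in dKO and at or below 3.22 CPM elsewhere, while the other 7 genes keep levels of the same order in all groups.

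Ccnd2, cyclin D2, is a D cyclin known for its roles in lymphoid, neural and gonadal cells. It was at 1.24, 1.54 and 1.24 CPM in WT (18, 33 and 24 counts), at 61.1, 65.6 and 32.5 CPM in dKO (811, 1538 and 815 counts), and at 2.37, 3.22 and 2.33 CPM in rescue (83, 69 and 54 counts). The 3 groups did not overlap, with dKO highest and WT lowest, and dKO replicate 3 lay well below the other dKO libraries. Against WT it rose in dKO by 5.28 ± 0.303 on the log2 scale (SE, edgeR adjusted p = 5.8e-08). Only 0.551% of tested genes had a larger change in either direction. In rescue against dKO it fell by 4.34 ± 0.264 (SE, edgeR adjusted p = 8.05e-08), 20.2-fold.

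Rescue and WT differed in Ccnd2 by a log2 fold change of 0.95 ± 0.383 (SE), which did not pass, with edgeR adjusted p = 0.0556 and a 95% interval of 0.11 to 1.79. The 3 rescue libraries were all above the 3 WT libraries. With only the rescue and WT libraries in the fit the change was 0.95 with edgeR adjusted p = 0.00114. It passed without dKO replicate 3 (adjusted p = 0.000305) or dKO replicate 2 (0.0352) and with the size factors of DESeq2 (0.0488). The DESeq2 test gave adjusted p = 0.00257, and leaving out single WT or rescue libraries gave edgeR adjusted p of 0.0669 to 0.138.

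Ratios within a library do not depend on scaling. Ccnd2 gave 0.828 ± 0.0969 counts per 100 counts of Ccnd1 in WT, 30.2 ± 9.25 in dKO and 1.39 ± 0.225 in rescue (SD, n = 3 libraries). Its share of all D cyclin counts was 0.394% ± 0.0525 in WT, 13.4% ± 4.05 in dKO and 0.704% ± 0.142 in rescue (SD, n = 3). The summed D cyclin level was 333 to 347 CPM in WT, 371 to 407 CPM in dKO and 372 to 384 CPM in rescue. The sum in WT lay below both other groups, and those overlapped. Counts were not corrected for transcript length, so these ratios, shares and sums compare groups and are not shares of transcripts.

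The 81 tested genes within 5 Mb of Ccnd2 had a median log2 fold change of -0.06 in dKO against WT and 0.11 in rescue against dKO. The long noncoding RNA 9330179D12Rik, which overlaps 2800 bp of Ccnd2, had at most 2 counts in a library. Of tested genes with a mean of at least 2 CPM, the pattern nearest to that of Ccnd2 over the 9 libraries was that of Atp12a, a proton pump subunit, with a root mean square difference of 0.307 log2 units after centring each gene. Atp12a stood at 2.21, 59.3 and 3.08 CPM in WT, dKO and rescue. Atp6v1c2, a subunit of the vacuolar proton pump, was next with 0.368 log2 units and means of 0.807, 22.8 and 0.914 CPM.

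Markers of other cell types rose in dKO as well. The ES cell label was checked on 8 markers, of which 6 fell and 1 rose in dKO, with a summed level of 6830 to 7067 CPM in WT, 5723 to 5867 CPM in dKO and 7799 to 7853 CPM in rescue. Of 10 fibroblast or feeder markers 5 could be tested and all 5 rose in dKO, with a summed level of 6.70 to 8.39 CPM in WT, 58.8 to 64.8 CPM in dKO and 14.7 to 15.6 CPM in rescue. Most of the dKO sum came from Thy1, Fbn1 and Pdgfrb, with means of 29.9, 16.1 and 13.0 CPM. Col1a1 and Col1a2 had means of 2.19 and 1.05 CPM in dKO, and Postn and Dcn 4 and 1 counts in all. Col3a1, Lum and S100a4 had no count in dKO. Of 7 primitive endoderm markers 6 were tested and all 6 rose, with a sum of 8.19 to 9.93 CPM in WT, 53.6 to 73.8 CPM in dKO and 9.86 to 11.6 CPM in rescue. Of 9 mesoderm and heart markers 7 were tested, 6 rose and 1 fell, with a sum of 5.55 to 6.06, 54.7 to 79.1 and 11.3 to 11.9 CPM. Mesp1 had no count in WT. Of 7 neural markers 4 were tested, 2 rose and 1 fell, with a sum of 73.7 to 83.0 CPM in WT, 191 to 225 CPM in dKO and 200 to 206 CPM in rescue. The similar neural sums of dKO and rescue came in part from different genes. Nes had means of 17.7, 102 and 22.6 CPM in WT, dKO and rescue, and Olig2 24.8, 85.5 and 82.1 CPM. Tubb3, the neural marker that fell in dKO, had means of 31.1, 19.9 and 93.5 CPM. Dcx had no count in any group. Among all tested genes 33.7% rose and 31.0% fell in dKO against WT. A marker near 0 in WT could enter the test through another group alone. Tbx5, for one, had 2, 4 and 0 counts in WT and 96, 165 and 223 in dKO. The numbers of markers that rose are thus partly set by the filter, while the sums include every listed gene. The dKO library with the lowest Ccnd2, replicate 3, had the highest endoderm and mesoderm sums and the lowest neural sum of the 3. The endoderm ranking rested largely on Dab2, at 26.5 CPM in dKO replicate 3 against 8.44 and 9.22 CPM in replicates 1 and 2. Gata6, Sox7 and Pdgfra were also highest in replicate 3. Gata4 and Foxa2 went the other way and were lowest there, and Sox17 was highest in replicate 2. The mesoderm ranking rested largely on Tbx20, at 46.8 CPM in dKO replicate 3 against 27.3 and 28.7 CPM in replicates 1 and 2. Myh6 went the other way and was lowest in replicate 3, and Isl1 was highest in replicate 2. In the neural list Nes and Olig2 were lowest in replicate 3, while Tubb3 was highest there. In bulk RNA, more cells of a type and more RNA per cell cannot be told apart, and the part of such cells in the levels of Ccnd2, Cdkn2c and Cdkn2d was not tested.

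Ccnd1, the cyclin D1 of most dividing cells, was at 163, 164 and 158 CPM in WT, 185, 174 and 164 CPM in dKO, and 185, 196 and 189 CPM in rescue. Rescue lay above both other groups by a small margin, and dKO and WT overlapped. Ccnd1 rose in rescue against WT by 0.23 ± 0.0578 on the log2 scale (SE, edgeR adjusted p = 0.00471). In dKO against WT the log2 fold change was 0.11, with a 95% interval of -0.02 to 0.23 and edgeR adjusted p = 0.121. It passed without dKO replicate 3 (0.15, edgeR adjusted p = 0.0161), with library totals in place of TMM (0.24, edgeR adjusted p = 0.00263) and with the stricter filter of 2 CPM on average (0.17, edgeR adjusted p = 0.0223). In rescue against dKO it was 0.13, with an interval of 0.00 to 0.25 and edgeR adjusted p = 0.0667. With library totals it was -0.01 (edgeR adjusted p = 0.91). That comparison passed without dKO replicate 1 (0.17, edgeR adjusted p = 0.0244), with the 2 groups alone (0.0483), with no filter (0.0499) and with DESeq2's size factors (0.0301) or test (0.0207). The 90 tested genes within 5 Mb had medians of 0.19 in dKO against WT, above the value of Ccnd1 itself, -0.17 in rescue against dKO and -0.01 in rescue against WT. Ccnd1 (chromosome 7, 144929931 to 144939831) overlaps Oraov1 by 818 bp, and reads in the overlap could not be assigned by strand.

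Ccnd3, cyclin D3, was at 183, 173 and 174 CPM in WT, 161, 162 and 175 CPM in dKO, and 185, 173 and 193 CPM in rescue. Each pair of groups overlapped. Ccnd3 rose in rescue against dKO by 0.15 ± 0.0598 on the log2 scale (SE, edgeR adjusted p = 0.0458). The call did not hold when WT replicate 1, 2 or 3 was left out (edgeR adjusted p = 0.0544, 0.057 and 0.0613), nor without dKO replicate 1 (0.119), dKO replicate 2 (0.128), rescue replicate 1 (0.1) or rescue replicate 3 (0.158). With library totals in place of TMM the change was 0.01 (edgeR adjusted p = 0.882), and with the stricter filter it was 0.09 (edgeR adjusted p = 0.172). Against WT, the log2 fold change was -0.09 in dKO (95% interval -0.22 to 0.04, edgeR adjusted p = 0.198, and 0.04 with library totals) and 0.05 in rescue (-0.08 to 0.18, edgeR adjusted p = 0.475). Without dKO replicate 3 the dKO value was -0.13 and passed, with edgeR adjusted p = 0.0393. The 84 tested genes within 5 Mb had medians of 0.05 in dKO against WT, -0.09 in rescue against dKO and 0.10 in rescue against WT. Ccnd3 (chromosome 17, 47505051 to 47599689) overlaps the ribosome biogenesis gene Bysl by 359 bp.

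**Figure D2:**
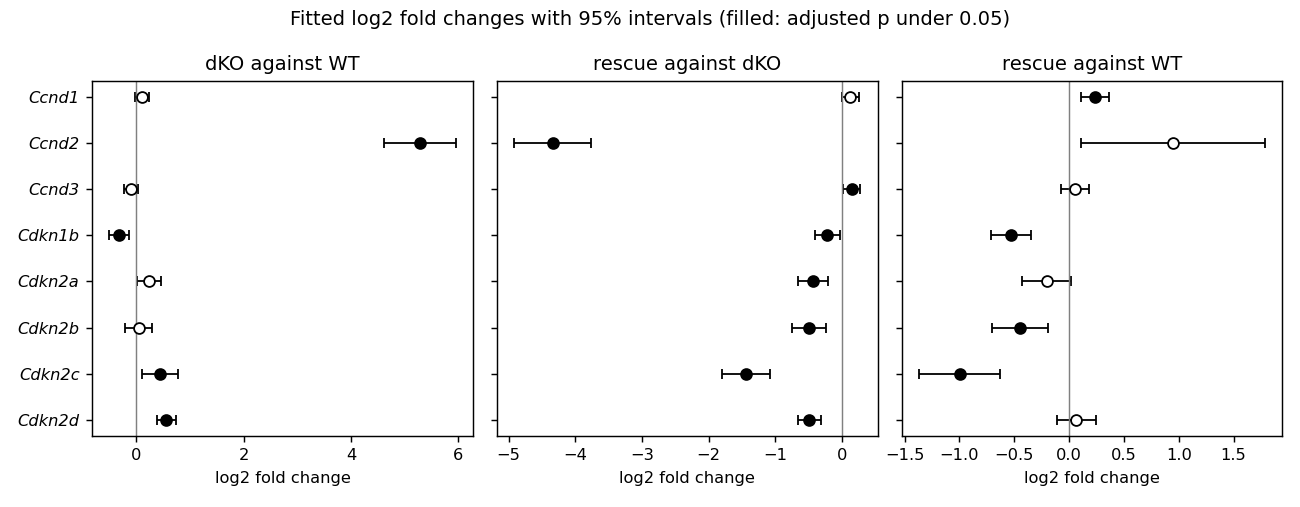
Fitted log2 fold changes of the 8 genes in the 3 comparisons, with 95% intervals from edgeR's fit, each panel on its own scale. Filled points passed an adjusted p under 0.05: Ccnd2 has the largest values with 5.28 and -4.34, and Cdkn1b and the INK4 genes lie below 0 in rescue against dKO.

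In rescue against dKO, 6 of the 8 genes fell (Ccnd2, Cdkn1b and the 4 INK4 genes), 1 rose (Ccnd3) and 1, Ccnd1, did not pass. Among all tested genes 38.2% fell and 32.1% rose, 70.3% in all (5407 and 4534 genes, or 6381 and 3342 with library totals). With library totals 6 of the 8 fell and 0 rose. Libraries did not overlap for 7 of the 8, and for 71.7% of all tested genes. The median of the 8 was -0.47, against -0.04 for all tested genes. Leaving out single libraries gave 5 to 7 genes called. In rescue against WT 4 of 8 were called, with Ccnd1 higher and Cdkn1b, Cdkn2b and Cdkn2c lower. Among all tested genes 26.8% rose and 27.3% fell, 54.1% in all. Libraries did not overlap for 5 of the 8, and for 65.3% of all tested genes. The median of the 8 was -0.08 against 0.00.

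Cdkn1b encodes p27Kip1, an inhibitor of Cdk2 complexes that accumulates in resting cells. It was at 54.9, 53.7 and 58.0 CPM in WT, 46.2, 47.2 and 40.6 CPM in dKO, and 40.4, 34.4 and 40.1 CPM in rescue. No group overlapped another, with WT highest and rescue lowest. Cdkn1b fell in dKO against WT by 0.31 ± 0.0836 on the log2 scale (SE, edgeR adjusted p = 0.00558) and in rescue against WT by 0.53 ± 0.0833 (SE, edgeR adjusted p = 0.000232). With library totals in place of TMM the dKO change was -0.18 and did not pass (edgeR adjusted p = 0.0896), on a scale where the median of all tested genes was 0.13. In rescue against dKO it fell by 0.22 (edgeR adjusted p = 0.0341). Leaving out single libraries ended that call for dKO replicate 1 (0.0868), dKO replicate 2 (0.127), rescue replicate 2 (0.142, with the change at -0.14), WT replicate 1 (0.0524) and WT replicate 2 (0.0515). It was also lost with DESeq2's size factors (0.0518) or test (0.0581), with no filter (0.0578) and with the 2 groups alone (0.108). The 31 tested genes within 5 Mb of Cdkn1b (chromosome 6, 134920401 to 134925525) had medians of -0.05 in dKO against WT and 0.21 in rescue against WT.

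The INK4 genes were set beside the Suz12 peaks before their RNA levels. Of the 8 members, 3 had a peak within the gene or 1 kb of its ends (Ccnd2, Cdkn2a and Cdkn2c), where 24.4% of the 24088 placed genes had one. The same 3 had one within the gene body alone (23.4% of genes), within 5 kb (27.3%), and among peaks of at least median width (13.7%). For Cdkn2a the gene body and width settings rest on a peak of 1459 bp inside the gene. Its other peak, of 780 bp near the upstream start, lies outside the gene and is narrower than the median of 1032 bp. Suz12 is the PRC2 subunit that the complex needs to form. The peaks are deposited as coordinates on mm10 with no score, and come from 1 sample. At Ccnd2 (chromosome 6, 127125162 to 127152188) a peak of 6.16 kb, wider than 98.8% of the 7480 peaks, ran from 127148053 to 127154211. It covered 4136 bp of the gene at its higher-coordinate end and went 2023 bp past it.

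Cdkn2a has separate starts for its 2 products: the upstream start gives p19Arf, which acts through Mdm2 and p53, and the downstream start p16Ink4a. The bases before these starts, with those of Cdkn2b and Cdkn2c, are shown because a Suz12 peak overlapped some of them and not others. Each sequence holds the 250 bases before a start on the minus strand of chromosome 4, from RefSeq on GRCm38.p6, whose chromosomes are those of mm10, and capitals mark each CG.
Cdkn2a upstream start (Arf), chr4:89294620-89294869: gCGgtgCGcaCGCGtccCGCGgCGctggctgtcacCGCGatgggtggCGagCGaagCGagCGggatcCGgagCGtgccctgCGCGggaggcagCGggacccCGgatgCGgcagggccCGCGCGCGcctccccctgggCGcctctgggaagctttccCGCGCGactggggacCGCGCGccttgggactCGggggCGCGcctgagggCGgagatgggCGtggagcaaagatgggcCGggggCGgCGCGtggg
Cdkn2a downstream start (Ink4a), chr4:89282193-89282442: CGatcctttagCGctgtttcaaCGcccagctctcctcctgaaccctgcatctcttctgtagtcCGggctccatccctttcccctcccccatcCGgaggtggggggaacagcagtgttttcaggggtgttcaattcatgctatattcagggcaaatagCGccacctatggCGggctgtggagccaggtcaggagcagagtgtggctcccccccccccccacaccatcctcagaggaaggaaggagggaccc
Cdkn2b, chr4:89311033-89311282: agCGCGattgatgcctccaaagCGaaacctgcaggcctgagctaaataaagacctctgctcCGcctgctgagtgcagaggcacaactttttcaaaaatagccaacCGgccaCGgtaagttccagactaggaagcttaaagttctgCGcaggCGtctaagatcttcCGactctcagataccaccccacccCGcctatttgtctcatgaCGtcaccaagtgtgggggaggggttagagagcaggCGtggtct
Cdkn2c upstream start, chr4:109666757-109667006: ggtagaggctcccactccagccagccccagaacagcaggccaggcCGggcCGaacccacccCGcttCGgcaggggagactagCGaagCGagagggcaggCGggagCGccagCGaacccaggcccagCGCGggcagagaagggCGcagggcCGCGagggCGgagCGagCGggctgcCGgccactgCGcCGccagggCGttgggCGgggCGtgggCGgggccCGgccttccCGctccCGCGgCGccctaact

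CG pairs were counted in these windows, since PRC2 peaks in ES cells are known to sit on CG-rich starts. The window of the Arf start held 40 CG, a number reached by 1.3% of the 32851 windows of the table, and a peak of 780 bp (89294682 to 89295461) overlapped it, beginning 63 bp upstream of the start, which itself lay outside the peak. The window of the Ink4a start held 7 CG, reached by 46.3% of windows, and no peak lay on it. A second peak of 1459 bp (89276248 to 89277706) lay inside Cdkn2a towards its far end. The Cdkn2b window held 12 CG (reached by 33.5%) and had no peak. The window of the Cdkn2c upstream start held 29 CG (reached by 6.8%), and a peak of 3066 bp (109664497 to 109667562) covered this start and the other listed start, whose window held 6 CG. A second peak near Cdkn2c, of 3150 bp (109656610 to 109659759), lay outside the gene, 1117 bp from its lower-coordinate end. Over all windows, 12.5% of starts lay in a peak, with a median of 20 CG against 4 CG for the rest.

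The remaining windows had no peak. They held 16 CG at Cdkn2d, 28 CG at Cdkn1b, and 11 and 19 CG at the listed starts of Ccnd3, the first of them upstream. Thus Cdkn1b nearly equalled Cdkn2c in CG without a peak. No window was available for Ccnd1 or Ccnd2, so neither was searched for CG or motifs. An E2F-like motif, TTTCCCGC or TTTGGCGC on either strand, was present once in the Arf window. It was in no other window of the members that had one, and in 1.3% of all windows. The cyclic AMP response motif TGACGTCA was present in the Cdkn2b window alone and in 1.55% of all windows. The SP1 motif GGGCGG was present in 32.7% of all windows. Among these genes it was in both Ccnd3 windows and in those of Cdkn1b, Cdkn2d, Arf and the Cdkn2c upstream start. A match describes these letters only.

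**Figure D3:**
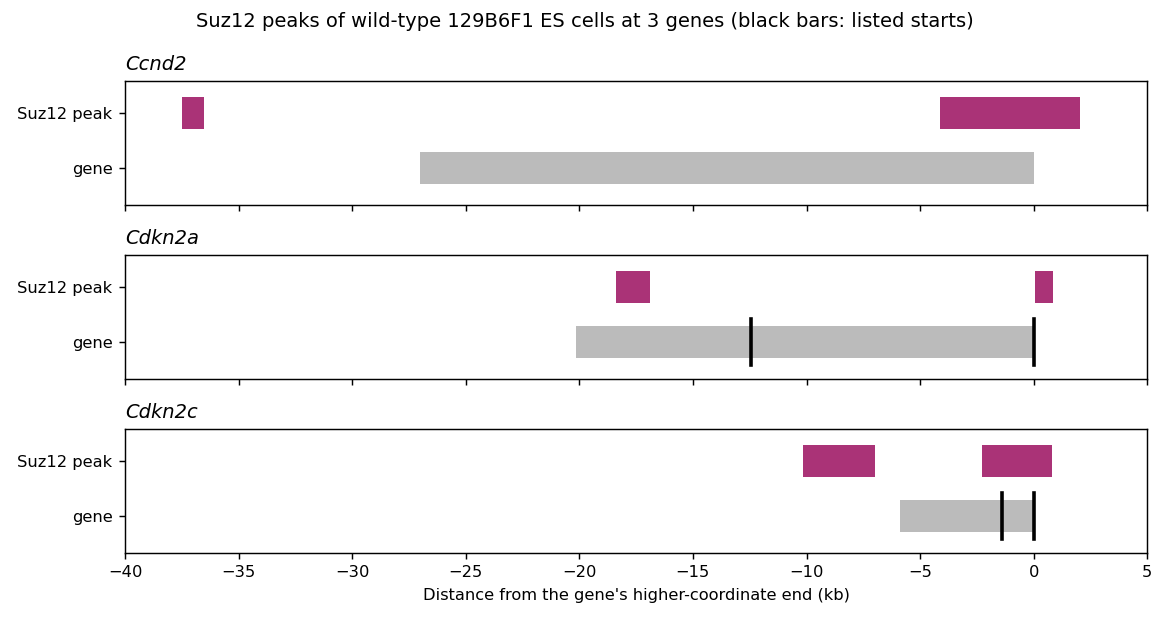
Suz12 peaks of 129B6F1 cells (upper bars) and gene bodies (lower bars) for Ccnd2, Cdkn2a and Cdkn2c, by distance in kb from the end of the gene with the higher coordinate. Black bars mark the starts listed for Cdkn2a and Cdkn2c: the peak of 6.16 kb at Ccnd2 and that of 3.07 kb at Cdkn2c span that end, and the peak of 0.78 kb at Cdkn2a lies just outside it.

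Cdkn2a was at 41.9, 42.4 and 39.3 CPM in WT, 54.8, 48.2 and 43.2 CPM in dKO, and 34.5, 40.7 and 32.3 CPM in rescue. The dKO libraries were all above the others, and WT and rescue overlapped. Counts per gene do not separate Arf from Ink4a transcripts. Cdkn2a fell in rescue against dKO by 0.44 ± 0.102 on the log2 scale (SE, edgeR adjusted p = 0.00206). In dKO against WT the change was 0.24, with a 95% interval of 0.01 to 0.46, and did not pass (edgeR adjusted p = 0.0609). It passed without dKO replicate 3 (0.31, edgeR adjusted p = 0.00718) or rescue replicate 2 (0.0401), with library totals (0.37, edgeR adjusted p = 0.00668) and with the stricter filter (0.30, edgeR adjusted p = 0.0278). In rescue against WT it was -0.20 (interval -0.43 to 0.02, edgeR adjusted p = 0.113). That comparison passed without dKO replicate 3 (0.0433) or rescue replicate 2 (-0.30, edgeR adjusted p = 0.0276) and with the 2 groups alone (0.0458).

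Cdkn2b, the neighbour of Cdkn2a, encodes p15Ink4b. It lies within the predicted gene Gm12610, with which it shares 4744 bp. It was at 5.72, 5.97 and 5.57 CPM in WT, 6.48, 5.85 and 5.63 CPM in dKO, and 4.29, 4.16 and 4.19 CPM in rescue. The rescue libraries were all below the others, and WT and dKO overlapped. Cdkn2b fell in rescue against WT by 0.45 ± 0.118 (SE, edgeR adjusted p = 0.00685) and against dKO by 0.50 ± 0.116 (SE, edgeR adjusted p = 0.00227), on the log2 scale. Between dKO and WT the log2 fold change was 0.05, with an interval of -0.21 to 0.30 (edgeR adjusted p = 0.807). Counts of Cdkn2b per 100 counts of Cdkn2a were 13.9 ± 0.281 in WT, 12.3 ± 0.638 in dKO and 11.9 ± 1.47 in rescue (SD, n = 3). The 19 tested genes within 5 Mb of this locus had medians of -0.15 in dKO against WT and 0.07 in rescue against WT.

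Cdkn2c, which encodes p18Ink4c, was at 4.34, 3.54 and 3.35 CPM in WT, 4.60, 5.42 and 5.07 CPM in dKO, and 1.86, 1.59 and 2.12 CPM in rescue. The groups did not overlap, with rescue lowest and dKO highest. It fell in rescue against dKO by 1.44 ± 0.164 (SE, edgeR adjusted p = 8.19e-06) and against WT by 1.00 ± 0.170 (SE, edgeR adjusted p = 0.00044), on the log2 scale. The rise in dKO against WT was 0.44 ± 0.157 (SE, edgeR adjusted p = 0.0259). Leaving out dKO replicate 2 (0.0834), WT replicate 3 (0.0886) or WT replicate 2 (0.0899) ended that call, as did DESeq2's test (0.0522). These levels rest on 34 to 127 counts per library. The 55 tested genes within 5 Mb had medians of 0.13 in dKO against WT and -0.05 in rescue against WT. The nearest patterns over the 9 libraries were those of Kif21b, a kinesin (0.128 log2 units), and Atg9b, an autophagy gene (0.142 log2 units).

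Cdkn2d, which encodes p19Ink4d, was at 17.8, 18.1 and 16.2 CPM in WT, 26.7, 25.2 and 24.9 CPM in dKO, and 18.9, 18.3 and 17.3 CPM in rescue. The dKO libraries were all above the others, and WT and rescue overlapped. It rose in dKO against WT by 0.56 ± 0.0812 (SE, edgeR adjusted p = 7.56e-05) and fell in rescue against dKO by 0.49 ± 0.0794 (SE, edgeR adjusted p = 0.000144), on the log2 scale. Rescue and WT differed by 0.07, with an interval of -0.11 to 0.24 (edgeR adjusted p = 0.518). No Suz12 peak lay within 5 kb of Cdkn2d (chromosome 9, 21288459 to 21291421), and the nearest was 39522 bp away. The 76 tested genes within 5 Mb had medians of -0.06 in dKO against WT and 0.13 in rescue against dKO. Its nearest patterns were those of Sdf2l1, an endoplasmic reticulum chaperone partner (0.0379 log2 units), and Slc38a9, a lysosomal amino acid sensor (0.0510 log2 units).

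The nearest patterns of the other members were those of Qars and Fbxw2 for Ccnd1 (0.0297 and 0.0315 log2 units), Tmco4 and Tbcb for Ccnd3 (0.0342 and 0.0354), Ahcy and Ivd for Cdkn1b (0.0331 and 0.0445), Calu and Hmox2 for Cdkn2a (0.0530 and 0.0540), and Rpl22 and Atad1 for Cdkn2b (0.0406 and 0.0491).

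The other genes of the G1/S pathway moved in both directions. Of 36 listed genes, all tested, 17 fell, 5 rose and 14 did not pass in dKO against WT, with a median log2 fold change of -0.15. The 22 called were 61.1% of the list, beside 64.7% of all tested genes. In rescue against dKO 14 rose, 9 fell and 13 did not pass (median 0.07), and in rescue against WT 9 rose, 13 fell and 14 did not pass (median -0.05). The shares called were 63.9% and 61.1%, beside 70.3% and 54.1% of all tested genes. Of the 13 that fell in rescue against WT, 4 lie on chromosome 3 (Ccna2, Cks1b, Fbxw7 and E2f5, named after their values were seen), with log2 fold changes of -0.69, -0.65, -0.70 and -0.69. The 650 tested genes of chromosome 3 had a median of -0.40 in that comparison, and its part in these changes was not tested.

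The kinases that D cyclins activate were lower in dKO. Cdk4 was at 698, 694 and 672 CPM in WT, 451, 441 and 412 CPM in dKO, and 701, 682 and 687 CPM in rescue. It fell in dKO against WT by 0.66 ± 0.0516 (SE, edgeR adjusted p = 4.2e-07), and rescue differed from WT by 0.00 (interval -0.11 to 0.12, edgeR adjusted p = 0.962). Cdk6 was at 22.2, 22.5 and 21.5 CPM in WT, 7.46, 8.36 and 10.6 CPM in dKO, and 29.1, 32.3 and 32.1 CPM in rescue. It fell in dKO by 1.30 and rose in rescue against WT by 0.50 on the log2 scale (edgeR adjusted p = 1.28e-06 and 0.00192). For both kinases dKO lay below both other groups with no overlap.

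The other Cip/Kip inhibitors are Cdkn1a and Cdkn1c. Cdkn1c, the imprinted inhibitor p57Kip2, was at 1.51, 1.87 and 1.70 CPM in WT, 11.1, 13.1 and 22.3 CPM in dKO, and 7.06, 6.21 and 6.57 CPM in rescue. Both other groups lay above WT, and it rose by 3.19 ± 0.264 in dKO and by 1.95 ± 0.275 in rescue against WT on the log2 scale (SE, edgeR adjusted p = 7.99e-07 and 0.000119). Cdkn1a, the p53 target p21Cip1, was at 302 ± 13.9 CPM in WT, 257 ± 21.0 in dKO and 315 ± 8.90 in rescue (SD, n = 3). It fell in dKO against WT by 0.23 and rose in rescue against dKO by 0.29 on the log2 scale (edgeR adjusted p = 0.00906 and 0.00184).

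Rb1, the retinoblastoma gene, was at 24.5 ± 1.37 CPM in WT, 26.8 ± 4.11 in dKO and 7.13 ± 0.263 in rescue (SD, n = 3). The rescue libraries were far below the others, and it fell against WT by 1.78 ± 0.116 on the log2 scale (SE, edgeR adjusted p = 3.77e-07). The 57 tested genes within 5 Mb of Rb1 had a median of -0.87 in the same comparison, and all tested genes of chromosome 14 a median of -0.84. What part of the lower Rb1 level goes with the whole chromosome was not tested. Rbl1, the related pocket protein p107, fell against WT by 0.60 in dKO and by 0.53 in rescue (edgeR adjusted p = 5.16e-06 and 3.11e-05). Cdc25a, the phosphatase that activates Cdk2, fell in dKO against WT by 0.66 and rose in rescue against WT by 0.81 (edgeR adjusted p = 1.65e-05 and 6.93e-06), on the log2 scale. Against dKO, Cdc25a rose in rescue by 1.48 and Cdk2, the kinase of the E and A cyclins, by 0.76 (edgeR adjusted p = 1.88e-08 and 3.32e-07). The 146 tested genes within 5 Mb of Cdc25a had a median of 0.32 in rescue against WT. Tfdp2, an E2F partner, fell in dKO by 0.88 and Cdk2 by 0.59 (edgeR adjusted p = 5.28e-07 and 2.93e-06). The mitotic cyclin Ccnb2 stood at -0.04 in dKO against WT, Rbl2 at 0.00 in rescue against dKO and E2f1 at -0.01 in rescue against WT, and none of them passed.

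**Figure D4:**
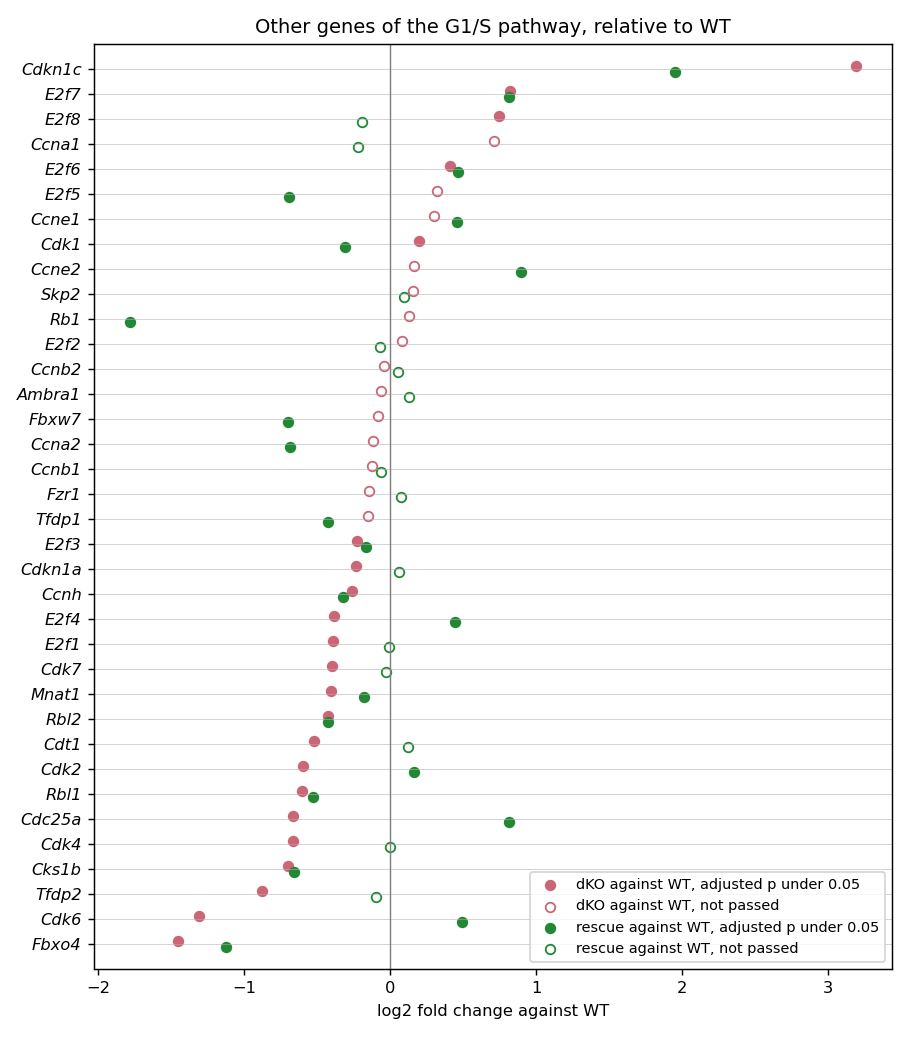
Log2 fold changes against WT of 36 other genes of the G1/S pathway in dKO (red) and rescue (green), ordered by the dKO value. Filled points passed an adjusted p under 0.05: Cdkn1c is highest in both, at 3.19 and 1.95, Rb1 stands at -1.78 in rescue, and Cdk4 and Cdk6 are below 0 in dKO and at or above 0 in rescue.

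Most listed genes of DNA replication and proliferation were lower in dKO. Of 14 listed, 13 fell and 1 rose in dKO against WT, where 31.0% of all tested genes fell, with a median log2 fold change of -0.40, and their summed level was 7270 to 7600 CPM in WT, 5738 to 6071 CPM in dKO and 6845 to 7063 CPM in rescue. The exception was Mki67, the proliferation antigen, which rose by 0.55 (edgeR adjusted p = 0.000811). From dKO to rescue 9 rose, 1 fell and 4 did not pass, and in rescue against WT 1 rose, 5 fell and 8 did not pass. The shares called in either direction were 71.4% and 42.9% in these 2 comparisons, beside 70.3% and 54.1% of all tested genes. By direction, 32.1% of all tested genes rose and 38.2% fell from dKO to rescue, and the list median was 0.33 against -0.04. There, more of the list rose and less of it fell than among all tested genes. In rescue against WT 26.8% of all tested genes rose and 27.3% fell, and the list median was -0.07 against 0.00.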

How the data were processed

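Polyadenylated RNA of 9 libraries was measured, and 1 of 62 ChIP samples had a peak list that was used, while 61 were not analysed here. For RNA the authors deposited whole-number read counts for each gene, not normalized. Per the submitters' processing notes, Trimmomatic, STAR 2.4.0 and HTSeq were used with mm10, and per the labels' protocols libraries were made with TruSeq RNA v2 reagents, a kit without strand marking. Reads shared by overlapping genes can therefore not be told apart. For the counting mode, the annotation and the peak caller nothing is stated in those sources. The authors deposited the peaks as other values, coordinates only.

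Counts were tested with edgeR 4.0.16 (R 4.3.3): filterByExpr by group, TMM, robust glmQLFit and glmQLFTest, in 1 fit of 9 libraries with 6 residual degrees of freedom, two-sided, with Benjamini-Hochberg adjustment over 14145 genes. The script was tested on simulated data. Log CPM for pattern likeness used a prior count of 2. Genes were placed by symbol (22858) or synonym (1230) on GRCm38.p6, and 134 were not matched. RefSeq windows were found for 9 starts of 6 members, with none for Ccnd1 or Ccnd2. The named genes are the 8 members, Ezh1, Ezh2, and from the pathway list Cdkn1a, Cdkn1c, Cdk4, Cdk6, Rb1 with the 2 smallest and the largest adjusted p per comparison. From the regulator list up to 3 called genes per comparison are named, and for each member the 2 nearest patterns. Mki67 and overlapping genes were named after their values were seen. Members and lists were chosen with earlier results of these data known. DESeq2 1.42.0 and other settings were tried as alternatives. Replicate numbers are shared across groups by title only.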

Additional observations from a re-analysis of the deposited data

How the results depend on the processing

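The 24 fold changes of the 8 genes were recomputed under 16 alternatives, which gave 384 values: 338 stayed on the same side of the threshold, 23 lost the call, 23 gained it, and 0 turned round with a call. 14 fold changes kept their side throughout, among them both changes of Ccnd2 that involve dKO, all of Cdkn2b and Cdkn2d, and the falls of Cdkn2c in rescue. Leaving out single libraries gave 3 to 7 members called in dKO against WT, 5 to 7 in rescue against dKO and 4 to 6 in rescue against WT. The highest in dKO against WT, 7, came without dKO replicate 3, since Ccnd1, Ccnd3 and Cdkn2a then passed. Library totals in place of TMM moved the median of all genes to 0.13 in dKO against WT and -0.18 in rescue against dKO, and split the dKO calls into 5841 higher and 2984 lower, where TMM gave 4769 and 4382. In rescue against dKO they gave 3342 higher and 6381 lower, where TMM gave 4534 and 5407. With the replicate block, 5, 7 and 5 members were called in the 3 comparisons, and 9148, 9917 and 7612 genes in all, against 4, 7 and 4 members and 9151, 9941 and 7653 genes without it. Same-numbered libraries had correlations of deviations from -0.11 to 0.20, over 0.1 in 2 of 9 pairs, so the numbers were not taken to pair the samples. The block called Cdkn2a in dKO against WT (0.23, edgeR adjusted p = 0.036) and Ccnd2 in rescue against WT (0.95, edgeR adjusted p = 0.00547). The count of 3 members with a Suz12 peak was the same with no extension, with 5 kb and with wider peaks only. With no extension and with wider peaks, Cdkn2a was counted through its inner peak and not through the one near the Arf start. Among the members, Ccnd2 in WT rests on the fewest counts, 18 to 33 a library, Ccnd2 in rescue on 54 to 83 and Cdkn2c on 34 to 127.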

Other observations

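Genes known from textbooks to act on D cyclins or on the Cdkn2a locus were also read. Of 18 such regulators, all tested, 6 rose, 7 fell and 5 did not pass in dKO against WT, 10 rose and 4 fell in rescue against dKO, and 13 rose and 2 fell in rescue against WT. The shares called were 72.2%, 77.8% and 83.3%, beside 64.7%, 70.3% and 54.1% of all tested genes. Hmga2, a chromatin protein that holds Cdkn2a down in neural stem cells, went from 9.96 ± 1.16 CPM in WT to 93.5 ± 3.48 in dKO and 21.9 ± 0.974 in rescue (SD, n = 3). On the log2 scale it rose in dKO against WT by 3.24 and in rescue against WT by 1.14, and fell in rescue against dKO by 2.10 (edgeR adjusted p = 1.6e-10, 1.38e-06 and 1.36e-09). Genes of Polycomb complex 1 moved both ways in dKO against WT: Cbx8 rose by 1.75 and Bmi1 by 0.76 (edgeR adjusted p = 6.63e-07 and 5.16e-06). Cbx7 fell by 0.43, Rnf2 by 0.20 and Kdm2b by 0.15 (edgeR adjusted p = 3.6e-05, 0.00645 and 0.0437), 3 genes named after their values were seen. Myc, a growth regulator, was at 1.24 to 1.38 CPM in WT, 0.759 to 0.904 CPM in dKO and 6.92 to 7.57 CPM in rescue. It rose in rescue by 2.47 against WT and by 3.14 against dKO (edgeR adjusted p = 1.99e-07 and 9.44e-09), and the 27 tested genes within 5 Mb had a median of 0.08 in rescue against WT. Ctnnb1, which encodes beta-catenin, rose in rescue by 0.78 against dKO and by 0.53 against WT (edgeR adjusted p = 1.15e-07 and 7.73e-06). In the latter comparison its 66 tested neighbours within 5 Mb had a median of 0.57.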
